A study of Mus musculus with 9 samples.

Results

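A set of 10 genes of the acrosome was followed through the first wave of mouse spermatogenesis. They were the 10 genes whose symbol in the array's probe table is exactly Acr, Acrv1, Acrbp, Spaca1, Spaca3, Spaca4, Spaca7, Zpbp, Zpbp2 or Spink2, out of 19935 genes with a value. Each had 1 array row of its own, and none was left out by a filter. RNA came from whole testis of untreated male Swiss albino mice aged 8, 16 or 24 days, all of one inbred line per the labels, with 3 arrays per age, which the design text calls biological replicates. Whether an array holds RNA of 1 animal or of several is not stated in the labels. The deposited values are on a log2 scale on which 0 is the level of a gene's own median array. They show how a gene differs between arrays and carry no absolute level, so genes can be compared by their changes and not by their levels. Arrays numbered 1 or 2 in their titles are called replicates 1 and 2 here, and the unnumbered array of each age is replicate 3.

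The acrosome is a secretory vesicle that forms from the Golgi apparatus and caps the nucleus of the spermatid. It holds a matrix of proteases, inhibitors and zona-binding proteins inside a membrane that later fuses with the plasma membrane when sperm meet the egg coat. Proacrosomal vesicles are already seen in late spermatocytes, while the cap itself is built in round spermatids, so that some acrosome genes are known to be transcribed during meiosis and others after it. In the first wave the most advanced germ cells change with age, from spermatogonia to spermatocytes and then to round spermatids. In whole testis a larger share of a cell type and more RNA per cell cannot be told apart.

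Promoter sequences are shown for 4 of the genes, because these 4 span the onsets described next: Acrbp and Zpbp2, which were higher by 16 days, Spaca1, which rose mostly afterwards, and Acrv1, which rose from 16 to 24 days. The windows run 5′ to 3′ on the gene's strand, from 250 bases before the start to 50 bases from it, and come from RefSeq (GRCm38.p6). Capitals mark the 5 letters TGACG, the core of the cAMP response element bound by CREM and related factors, and the 6 letters GTGTGT, a repeat that the protein TDP-43 is known to bind, on either strand.
Acrbp, chr6:125049677-125049976, plus strand: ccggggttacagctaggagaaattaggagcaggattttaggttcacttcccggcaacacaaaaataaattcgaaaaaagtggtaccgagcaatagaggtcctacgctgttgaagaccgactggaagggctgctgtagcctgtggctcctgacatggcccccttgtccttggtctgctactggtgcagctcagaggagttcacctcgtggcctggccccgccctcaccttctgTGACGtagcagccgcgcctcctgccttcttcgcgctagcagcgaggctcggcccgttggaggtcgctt
Zpbp2, chr11:98550847-98551146, plus strand: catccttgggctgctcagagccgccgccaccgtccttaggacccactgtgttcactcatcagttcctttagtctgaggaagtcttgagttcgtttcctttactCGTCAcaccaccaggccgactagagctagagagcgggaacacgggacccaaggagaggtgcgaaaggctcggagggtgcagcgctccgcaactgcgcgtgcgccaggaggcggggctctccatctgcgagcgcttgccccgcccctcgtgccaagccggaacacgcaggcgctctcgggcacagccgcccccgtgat
Spaca1, chr4:34050016-34050315, minus strand: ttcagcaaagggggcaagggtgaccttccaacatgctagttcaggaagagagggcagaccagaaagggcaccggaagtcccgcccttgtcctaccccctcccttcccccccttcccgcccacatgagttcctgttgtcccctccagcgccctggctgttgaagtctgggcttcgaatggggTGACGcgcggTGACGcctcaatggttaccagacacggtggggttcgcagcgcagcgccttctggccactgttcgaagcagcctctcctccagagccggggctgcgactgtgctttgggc
Acrv1, chr9:36692970-36693269, plus strand: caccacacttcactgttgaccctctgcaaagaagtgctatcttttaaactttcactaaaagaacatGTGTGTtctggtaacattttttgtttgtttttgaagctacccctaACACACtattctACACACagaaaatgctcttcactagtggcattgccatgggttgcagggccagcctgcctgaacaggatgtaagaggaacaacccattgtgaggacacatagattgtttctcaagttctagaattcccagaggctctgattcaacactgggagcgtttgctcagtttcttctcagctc

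Of the 10 genes, 9 had a window in the RefSeq table, all but Acr, with 13 windows in all, and 7 motifs were searched on both strands. TGACG or its reverse CGTCA lay in windows of Acrbp, Spaca1, Spaca3 and Zpbp2, 4 of 9 genes, against 23.0% of all 27025 genes with a window. In Acrbp the match began 18 bases before the start, at position -18, and in Spaca1 there were matches at -69 and -59 of the window shown. The full palindrome TGACGTCA, which contains that core, was found for 0 of the 9 genes and for 2.03% of all genes. GTGTGT or ACACAC lay in windows of Acrv1, Spaca7 and Spink2, 3 of 9 genes, against 19.5%, and the 3 matches of Acrv1 were at -184, -139 and -127. Neither marked string lay in the windows of Zpbp or Spaca4. Each window shown holds a marked string, so those windows are not representative of the 9 genes. The MYB core AACNGNC was found for Acrbp, Spaca1 and Spink2 (36.0% of all genes), the SOX core ACAAT for Acrv1 (34.4%), the RFX motif GTTGCC for Acrbp (14.1%) and TATAAA for Spaca7 (15.7%). Such matches are short letter strings in a window and were not tested as binding sites.

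The 10 genes separated by onset. By limma with Benjamini-Hochberg adjustment over all genes, 6 of the 10 were higher at 16 than at 8 days, where 10.4% of all genes rose, and 0 were lower (also 0 at an unadjusted p under 0.05). All 10 rose from 16 to 24 days, where 13.2% of all genes rose, and all 10 rose from 8 to 24 days, against 19.2%. The median change of the 10 was 1.15, 1.62 and 3.94 on the log2 scale in these 3 comparisons, and that of all genes was -0.02, -0.16 and -0.18. Changes of at least 2-fold were called for 5, 9 and 9 of the 10 genes, against 3.82%, 5.38% and 9.72% of all genes. Every 16-day array lay above every 8-day array for Acr, Acrbp, Spink2, Zpbp, Zpbp2 and Spaca1, as in 14.7% of all genes. At 24 days every array lay above every 16-day array for all 10 genes, as in 16.5% of all genes, and above every 8-day array, as in 20.5%.

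**Figure D1:**
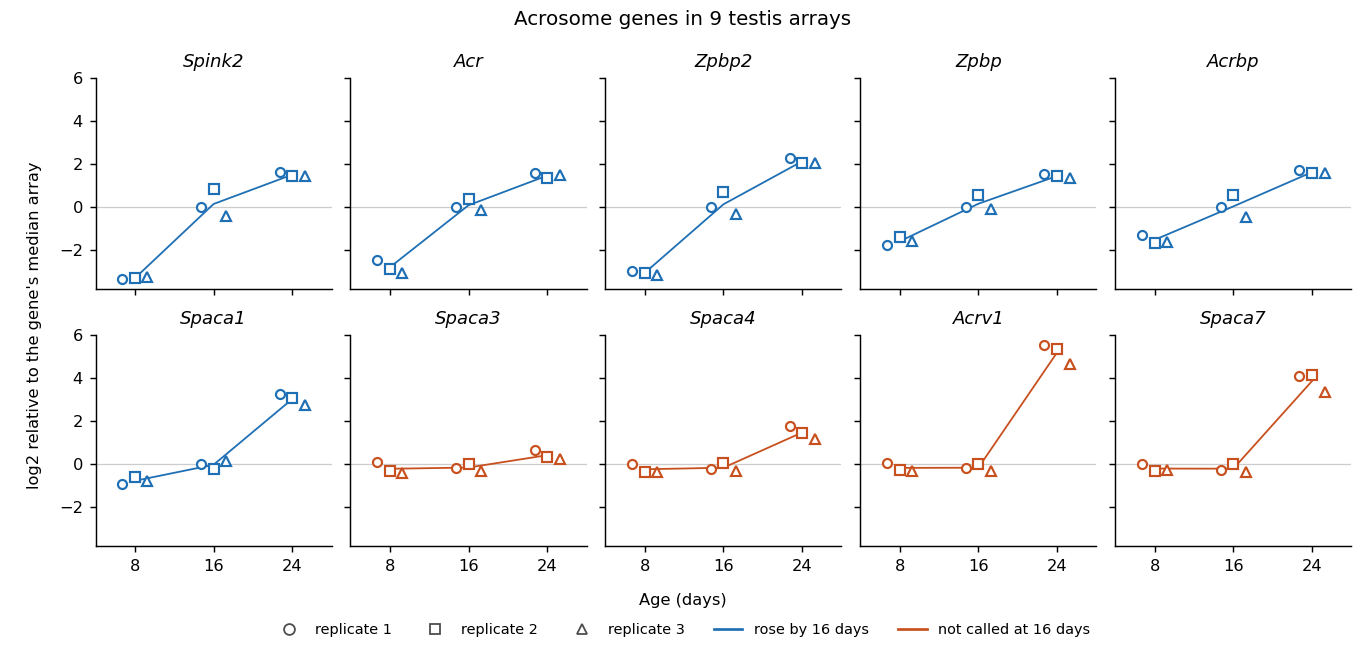
Centred log2 values (y axis) of the 10 genes in the 9 arrays by age in days (x axis), with 1 symbol per replicate and a line through the 3 age means; blue genes were called higher at 16 than at 8 days and orange genes were not. Spink2, Acr, Zpbp2, Zpbp and Acrbp climb over both intervals, Spaca1 mostly over the second, and Acrv1 and Spaca7 stay flat to 16 days and then reach means of 5.20 and 3.87.

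The acrosin system rose over both intervals. Acr (gene ID 11434, chromosome 15) encodes acrosin, the serine protease stored as the inactive zymogen proacrosin. Its values in replicates 1, 2 and 3 were -2.46, -2.88 and -3.06 at 8 days, 0.00, 0.38 and -0.12 at 16 days, and 1.58, 1.34 and 1.48 at 24 days. The 3 ages did not overlap. Acr rose by 2.89 ± 0.17 (moderated standard error, 3 arrays per age), or 7.40-fold, from 8 to 16 days (limma adjusted p 2.17e-06). It rose by a further 1.38 ± 0.17, or 2.60-fold, from 16 to 24 days (limma adjusted p 0.000377).

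Spink2 (gene ID 69982, chromosome 5), a Kazal-type inhibitor that restrains acrosin inside the forming acrosome, had values of -3.35, -3.32 and -3.24 at 8 days, 0.00, 0.84 and -0.40 at 16 days, and 1.62, 1.44 and 1.47 at 24 days. The 16-day arrays spread widely, with an SD of 0.64 against 0.06 and 0.10 at 8 and 24 days (n = 3), yet they did not overlap either neighbouring age. Its first-interval change of 3.45 ± 0.25, or 10.9-fold, was the largest of the 10 (limma adjusted p 7.89e-06), and its second was 1.36 ± 0.25 (limma adjusted p 0.00324). Without replicate 2 of 16 days these changes were 3.10 and 1.71.

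Acrbp (gene ID 54137, chromosome 6) encodes the protein that binds proacrosin and governs its packaging and processing. Its values were -1.30, -1.65 and -1.61 at 8 days, 0.00, 0.58 and -0.48 at 16 days, and 1.72, 1.60 and 1.57 at 24 days. Its rise divided almost evenly, into 1.55 ± 0.22 before and 1.60 ± 0.22 after 16 days (limma adjusted p 0.000745 and 0.000728). Leaving out 1 array moved the first of these between 1.28 and 1.81.

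Both zona pellucida binding proteins rose early as well, Zpbp2 by more than its paralog Zpbp. Zpbp (gene ID 53604) and Zpbp2 (gene ID 69376), both on chromosome 11, encode matrix proteins needed for a compact acrosome and for binding to the egg coat. Zpbp had values of -1.78, -1.41 and -1.58 at 8 days, 0.00, 0.55 and -0.07 at 16 days, and 1.55, 1.46 and 1.34 at 24 days. Zpbp2 had values of -2.97, -3.05 and -3.16 at 8 days, 0.00, 0.69 and -0.30 at 16 days, and 2.28, 2.06 and 2.05 at 24 days. In neither gene did the ages overlap. Zpbp rose by 1.75 ± 0.16 and then by 1.29 ± 0.16, and Zpbp2 rose by 3.19 ± 0.21 and then by 2.0 ± 0.21, with limma adjusted p from 4.31e-06 to 0.00044. Over the whole span Zpbp2 rose 36.5-fold and Zpbp 8.22-fold.

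The membrane proteins Spaca1 and Spaca4 rose more in the second interval than in the first, and Spaca3 was called higher at 24 days only. Spaca1 (gene ID 67652, chromosome 4), a protein of the inner acrosomal membrane that helps to hold the acrosome to the nucleus, had values of -0.92, -0.60 and -0.79 at 8 days, 0.00, -0.21 and 0.15 at 16 days, and 3.29, 3.08 and 2.74 at 24 days. The 8-day arrays were all below the 16-day arrays, by a mean of 0.75 ± 0.15 (limma adjusted p 0.00586). The step to 24 days was 3.06 ± 0.15, or 8.33-fold (limma adjusted p 1.16e-06).

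Spaca4 (gene ID 69363, chromosome 7), a small Ly6-type protein anchored to the acrosomal membrane by a lipid tail, had values of 0.00, -0.34 and -0.35 at 8 days, -0.22, 0.07 and -0.32 at 16 days, and 1.78, 1.47 and 1.19 at 24 days. The 8-day and 16-day arrays overlapped, with a change of 0.07 ± 0.17 (limma adjusted p 0.897), and the rise to 24 days was 1.64 ± 0.17, or 3.11-fold (limma adjusted p 0.000106).

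Spaca3 (gene ID 75622, chromosome 11), a lysozyme-like membrane protein, changed least. Its values were 0.12, -0.32 and -0.42 at 8 days, -0.16, 0.00 and -0.29 at 16 days, and 0.66, 0.36 and 0.25 at 24 days. The change to 24 days was 0.57 ± 0.16, or 1.49-fold, with a limma adjusted p of 0.0204. That call was lost without replicate 1 of 16 days (adjusted p 0.0646), replicate 3 of 16 days (0.0659) or replicate 1 of 24 days (0.0842). From 8 to 24 days its rise of 0.63 ± 0.16 kept an adjusted p below the threshold under every alternative tried, up to 0.0391.

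Acrv1 and Spaca7, both matrix proteins, had the largest second-interval changes of the 10. Acrv1 (gene ID 11451, chromosome 9), also known as SP-10 and widely used as a stain for the acrosome, had values of 0.05, -0.26 and -0.29 at 8 days, -0.17, 0.00 and -0.30 at 16 days, and 5.56, 5.37 and 4.67 at 24 days. Its change was 0.01 ± 0.21 by 16 days (limma adjusted p 0.994) and 5.36 ± 0.21, or 41.1-fold, afterwards (limma adjusted p 4.33e-07), rank 2 among the 19935 genes. Spaca7 (gene ID 78634, chromosome 8), released during the acrosome reaction, had values of 0.00, -0.32 and -0.27 at 8 days, -0.27, 0.00 and -0.34 at 16 days, and 4.12, 4.14 and 3.36 at 24 days. It changed by -0.01 ± 0.20 by 16 days (limma adjusted p 0.996) and by 4.08 ± 0.20, or 16.9-fold, from 16 to 24 days (limma adjusted p 1.07e-06). The 8-day and 16-day arrays overlapped in both genes.

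The genes not called by 16 days shared an order of arrays at 8 and 16 days. In Acrv1, Spaca3, Spaca4 and Spaca7 replicate 1 was the highest of the 8-day arrays and replicate 2 the highest of the 16-day arrays, as they were in 46.9% and 49.5% of all genes. In the same 2 arrays the median of 1027 olfactory receptor genes, genes used mainly in the nose, was 0.17, against -0.05 to 0.03 in the other 7. Without these 2 arrays the counts of the 10 genes called higher stayed at 6, 10 and 10. The part of these array differences in the values at 8 and 16 days was not tested. Centred values give no detection limit, so how far the early values lay above background, and with it whether the later folds of these genes are understated, is not known.

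**Figure D2:**
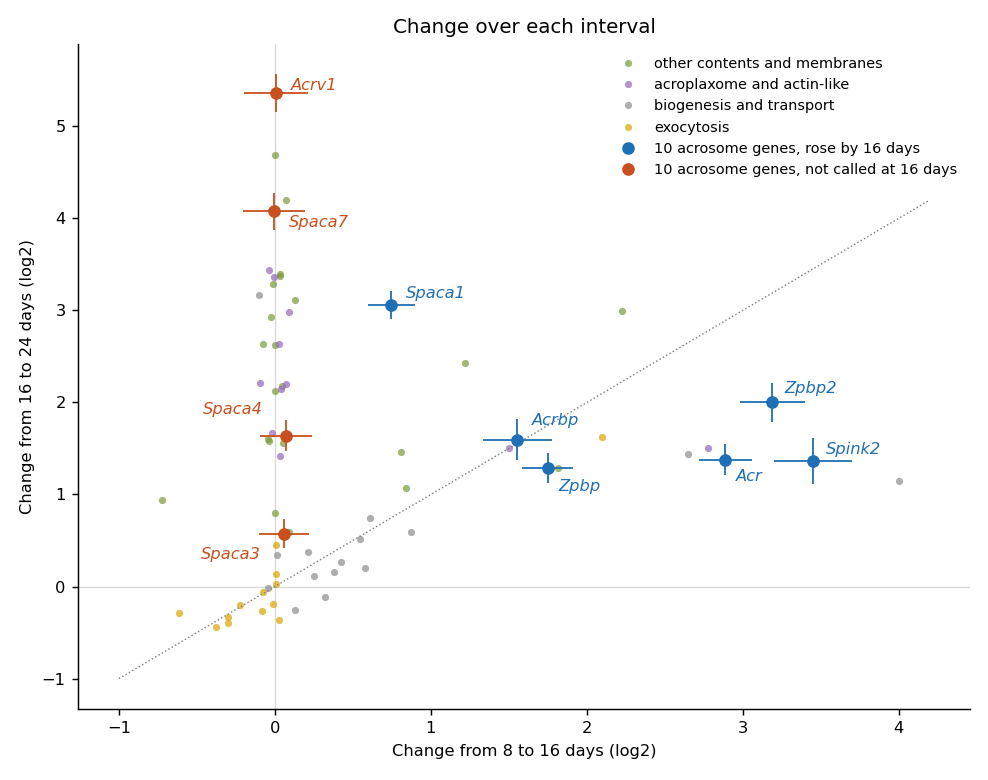
Change from 8 to 16 days (x axis) against change from 16 to 24 days (y axis), both log2, for the 10 acrosome genes with moderated standard errors (large points) and for genes of 4 other acrosome lists (small points); the dotted line marks equal changes. Acrv1 and Spaca7 lie near 0 on the x axis, at 5.36 and 4.08 on the y axis, while Spink2, Zpbp2 and Acr lie to the right of the line.

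Ordered by the change from 8 to 16 days, Spink2, Zpbp2 and Acr came first, then Zpbp and Acrbp, then Spaca1, then Spaca4, Spaca3, Acrv1 and Spaca7. Neighbours within each of these groups differed by less than 2 combined standard errors, and the gaps between groups, 1.14, 0.81 and 0.68, were larger than that. The groups were cut at those gaps, and the combined errors treat genes measured on the same arrays as independent. The grouping is therefore a description and not a test. Ordered by the change from 16 to 24 days, Acrv1, Spaca7 and Spaca1 each stood apart from the next gene by 1.02 or more. Zpbp2, Spaca4, Acrbp, Acr, Spink2 and Zpbp followed with neighbouring gaps of at most 0.36, and Spaca3 was last.

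The share of the whole 8-to-24-day log2 rise that was present at 16 days put the genes on 1 scale. It was 71.7% for Spink2, 67.7% for Acr, 61.5% for Zpbp2, 57.5% for Zpbp and 49.4% for Acrbp. Spaca1 had reached 19.6%, with a range of 17.4 to 22.1% when 1 array was left out. The shares of Acrv1 and Spaca7 were 0.16% and -0.14%, and that of Spaca4 was 4.20%. For Spaca3 the share of 9.25% ranged from -8.75 to 27.8%, because its whole rise was small.

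**Figure D3:**
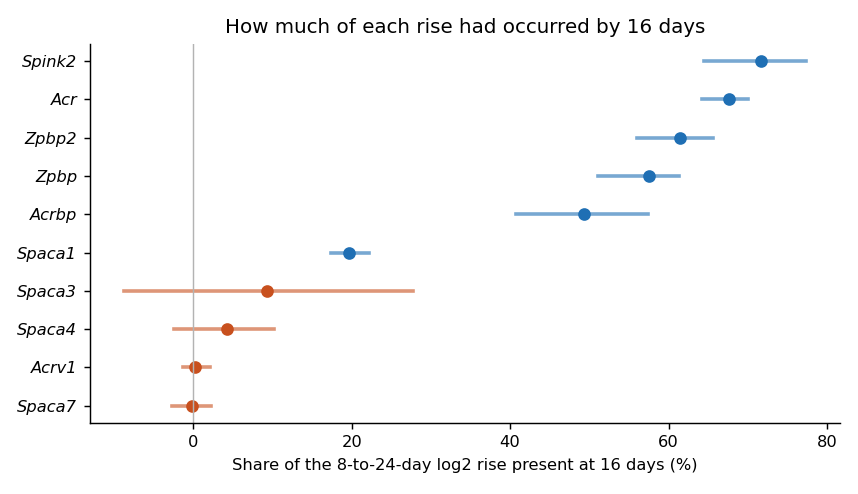
Share of each gene's 8-to-24-day log2 rise present at 16 days (x axis, percent), with a point for all 9 arrays and a bar for the lowest and highest value when 1 array was left out. The 5 genes of the acrosin system and the zona-binding pair lie between 49.4 and 71.7%, apart from Spaca1 at 19.6% and the other 4 genes at 9.25% or less.

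Whether the second interval differed from the first was tested per gene in the same fit. It was larger for Acrv1, Spaca7, Spaca1 and Spaca4, 4 of 10 genes, against 3.06% of all genes. It was smaller for Spink2 and Acr, 2 of 10, against 2.31%. The differences were 5.35 ± 0.36 for Acrv1, 4.08 ± 0.35 for Spaca7, 2.31 ± 0.26 for Spaca1 and 1.57 ± 0.29 for Spaca4, with limma adjusted p from 3.56e-05 to 0.0107. For Spink2 the difference was -2.09 ± 0.43 (limma adjusted p 0.0189) and for Acr -1.51 ± 0.29 (limma adjusted p 0.0146). Zpbp2 had -1.19 ± 0.36 (limma adjusted p 0.109), and passed without replicate 3 of 16 days (limma adjusted p 0.0273). The Spink2 call was lost without replicate 1 of 16 days (limma adjusted p 0.0576), and that of Spaca4 without replicate 1 (0.0613) or replicate 3 (0.0543) of 16 days. Acrbp (0.04 ± 0.38), Zpbp (-0.46 ± 0.28) and Spaca3 (0.52 ± 0.27) did not pass.

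For 5 pairs of these genes the difference of the centred log2 values was compared over the 3 ages by an exact permutation test. Its statistic was the spread between ages relative to the spread within them, so it tests no direction and no single step. P-values were adjusted over the 5 pairs. The smallest p this design can give is 0.00357. Only changes with age can be read from such a log ratio, since each gene is centred on its own median. The log ratio of Zpbp2 to Zpbp had means of -1.47 ± 0.25, -0.03 ± 0.19 and 0.68 ± 0.07 at 8, 16 and 24 days (SD, n = 3), with an exact p of 0.00357 and 0.00893 after adjustment. Its ages did not overlap, and it was higher at each later age. For Acrbp to Acr the means were 1.28 ± 0.15, -0.05 ± 0.28 and 0.16 ± 0.08 (exact p 0.0107, adjusted 0.0179). All 8-day arrays lay above all others, so that the measured rise of Acr up to 16 days exceeded that of its binding protein. The 16-day and 24-day arrays overlapped. Centred values give no detection limit, so the measured rises of Acr, Acrbp, Zpbp and Zpbp2 may be understated unequally.

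For the inhibitor and the protease no change with age passed the test. The log ratio of Spink2 to Acr had means of -0.50 ± 0.36, 0.06 ± 0.38 and 0.04 ± 0.05 (exact p 0.0786, also after adjustment), and its 8-day arrays ranged from -0.90 to -0.18, overlapping those of 16 days. For Acrv1 to Acr the means were 2.63 ± 0.13, -0.25 ± 0.12 and 3.74 ± 0.47 (exact p 0.00357, adjusted 0.00893). The differing onsets of Acrv1 and Acr were already in their own values. Spaca7 to Spaca1 had means of 0.57 ± 0.33, -0.18 ± 0.36 and 0.84 ± 0.22 (exact p 0.0143, adjusted 0.0179). Each of the log ratios was formed from gene values already described, so none of their p-values adds separate support.

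**Figure D4:**
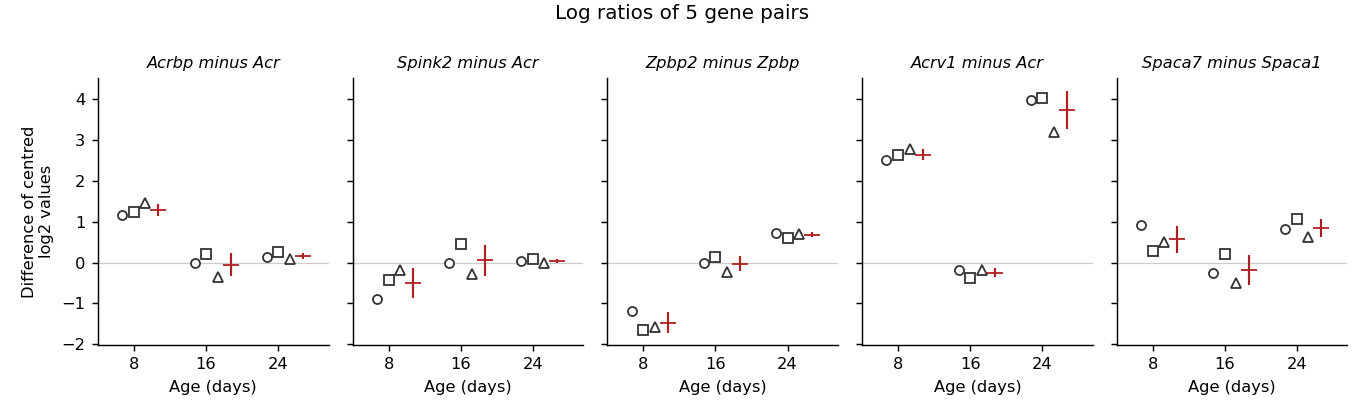
Difference of the centred log2 values of 5 gene pairs (y axis) by age in days (x axis); open circles, squares and triangles are replicates 1, 2 and 3, and red marks are means with SD. Zpbp2 minus Zpbp climbs from -1.47 to 0.68, while Spink2 minus Acr has means of 0.06 and 0.04 at 16 and 24 days.

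Within an age the arrays differed in a shared way. Among the 6 genes called at 16 days, replicate 2 was the highest 16-day array in 5 (Acr, Acrbp, Spink2, Zpbp and Zpbp2), and it was the lowest for Spaca1. It was also the highest in 90.8% of the 769 genes that rose by at least 1 on the log2 scale from 8 to 16 days. The share over all genes was 49.5%. Those 769 genes were chosen by 16-day means that include this array, so their share gives no separate support. The 4 pachytene spermatocyte markers (Piwil1, Ldhc, Sycp3 and Adam2) had a median of 0.31 in that array, against 0.00 and -0.02 in the other 16-day arrays. The 4 Leydig cell markers had a median of -0.34 there, against -0.97 and -0.96, and the 5 Sertoli cell markers had a median of -0.29, against 0.00 and 0.14. At 24 days replicate 1 was the highest array for all 6 genes called at 16 days and for 3 of the other 4, against 26.7% of all genes. Replicate 3 was the lowest for Acrv1, Spaca3, Spaca4 and Spaca7 and for 4 of the 6 genes called at 16 days, against 24.8%. Its median of 4 round spermatid markers (Prm1, Prm2, Tnp1 and Tnp2) was 2.62, against 4.20 and 3.69 in replicates 1 and 2, and its Leydig median was -0.87, against 0.08 and 0.00. The part of these array differences in the results was not tested. Without replicate 2 of 16 days the count of genes called at 16 days stayed at 6, and without replicate 3 of 24 days the change of Acrv1 was 5.62.

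**Figure D5:**
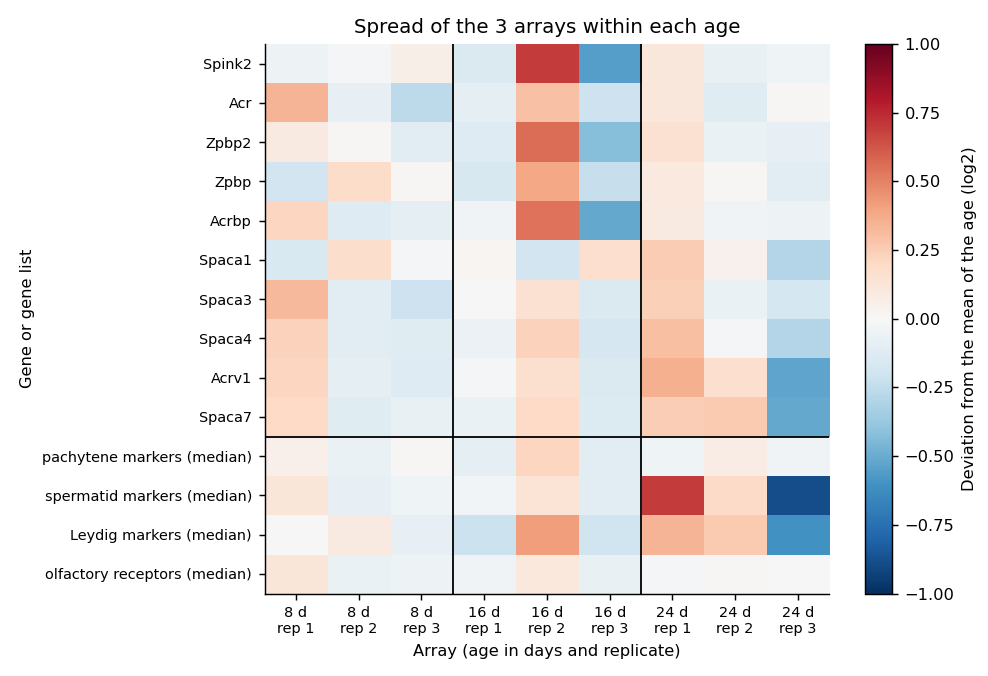
Deviation of each array from the mean of its age (color, log2) for the 10 genes and for the medians of 4 gene lists (rows), by age and replicate (columns). Replicate 2 of 16 days is high for Spink2, Zpbp2, Acrbp, Zpbp and Acr, and replicate 3 of 24 days is low for Acrv1, Spaca7 and the spermatid markers.

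The genes whose 9 values lay closest to those of each acrosome gene were found by the root mean square difference, a description with no test. Closest to Acrv1 were Stat4, Smcp, of the sperm mitochondrial capsule, and the protamine Prm1, at 0.17, 0.20 and 0.21 log2 units. For Spaca7 they were Zp3r, an acrosomal matrix protein also known as sp56, at 0.10, Sun5, which joins the sperm head to the tail, at 0.14, and Ropn1, of the fibrous sheath, at 0.15. Closest to Spaca4 was Ppp1r2-ps9, at 0.07, and closest to Spaca3 was Prr32, at 0.08. Next to these came, at 0.09 each, Zan, or zonadhesin, an acrosomal protein that binds the zona, for Spaca4, and Fam170b, another acrosomal protein, for Spaca3. Closest to Acr, Zpbp2 and Spink2 were Dnali1, a light intermediate chain of axonemal dynein, at 0.12, Fam227b at 0.13 and Lrrc46 at 0.14. Closest to Zpbp and Acrbp were Ccdc113 at 0.11 and Ccdc30 at 0.13, and to Spaca1 Ppp1r32 at 0.22. Among the 10 genes themselves, the closest pair was Zpbp and Acrbp, at 0.25.

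Other genes of the acrosome were grouped by role. Of 22 measured genes of its contents and membranes, 5 rose and 1 fell by 16 days by limma. Of all genes, 10.4% rose and 14.3% fell. All 22 rose from 16 to 24 days, where 13.2% of all genes rose. The median changes of the 22 genes were 0.04 and 2.31, against -0.02 and -0.16 for all genes. The count of 5 fell to 2 without replicate 2 or replicate 3 of 8 days or without replicate 2 of 16 days, and to 3 without replicate 1 of 16 days. The largest early changes were those of the protease Prss39 (2.23 ± 0.46) and of Spesp1, of the equatorial segment (1.82 ± 0.16). Spaca6, which is needed for fusion with the egg, fell by 0.72 ± 0.13 and then rose by 0.94 ± 0.13. In the second interval the hyaluronidase Hyal5 rose by 4.69 ± 0.22, Zp3r by 4.19 ± 0.22, and the lysozyme-like Lyzl6 by 3.40 ± 0.23.

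Of 11 genes of the plate between acrosome and nucleus and of the actin-like proteins there, 2 rose by 16 days. All 11 rose from 16 to 24 days. Median changes of the 11 were 0.03 and 2.20. Of all genes, 10.4% and 13.2% rose and 14.3% and 20.1% fell in these 2 intervals, with medians of -0.02 and -0.16. The early pair was Dpy19l2, which anchors the acrosome to the nuclear envelope (2.78 ± 0.19), and Actl9 (1.50 ± 0.20). The largest later changes were those of the capping protein Capza3 (3.44 ± 0.20), the cylicin Cylc2 (3.37 ± 0.29) and Fam209 (2.98 ± 0.19). Of 15 genes of acrosome formation and vesicle transport, 9 rose in each interval by limma and 0 fell (also 0 at an unadjusted p under 0.05), with medians of 0.38 and 0.34. Early changes were largest for Pdcl2 (4.004 ± 0.20), Spata16 (2.65 ± 0.25) and Gba2 (0.88 ± 0.14), and the largest later one was that of Galntl5 (3.17 ± 0.24). At least 2-fold rises were fewer, at 2 and 3 of the 15, against 3.82% and 5.38% of all genes.

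Genes of the machinery of acrosomal exocytosis, much of which is shared with nerve cells, changed in both directions, in proportions near those of all genes. From 8 to 24 days 2 of 13 measured genes rose and 6 fell, where 19.2% of all genes rose and 35.2% fell, with a median of -0.34 against -0.18. Plcd4, a phospholipase C of the zona-induced reaction, rose by 3.72 ± 0.20 and the syntaxin Stx2 by 0.46 ± 0.14. Doc2b fell by 0.90 ± 0.10, the fusion ATPase Nsf fell by 0.81 ± 0.16 and Rims1 fell by 0.70 ± 0.08. None of the 6 falls reached 2-fold. With only rows holding 1 blank cell, 2 of 7 measured genes rose and 2 fell. The count of rises was 1 without replicate 1 of 8 days or replicate 1 of 24 days.

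Of 10 transcription regulators of spermatocytes and spermatids, 8 rose and 1 fell by 16 days, where 10.4% of all genes rose and 14.3% fell. From 16 to 24 days 8 rose and 1 fell, where 13.2% of all genes rose and 20.1% fell. Later rises of at least 2-fold were called for 2 of the 10, against 5.38% of all genes. Sox30, Mybl1 and Rfx2 rose by 2.33 ± 0.10, 2.18 ± 0.23 and 1.90 ± 0.13 by 16 days. Crem, the activator of many spermatid genes, rose by 1.66 ± 0.20 and then by 1.13 ± 0.20. Its partner Fhl5 fell by 0.75 ± 0.21 and then rose by 3.62 ± 0.21. The early fall of Fhl5 was not called when any 1 of the 8-day arrays or replicate 1 of 16 days was left out, and the later fall, of Taf7l by 0.68 ± 0.18, was not called without replicate 3 of 16 days or without replicate 1 or 3 of 24 days.

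The germ cell marker lists followed the labelled ages. All 4 pachytene markers rose by 16 days, with a list median of 4.14, where 10.4% of all genes rose. All 4 round spermatid markers rose from 16 to 24 days, with a list median of 3.70, where 13.2% of all genes rose. By 24 days 4 of 5 Sertoli and all 4 Leydig markers were called lower than at 8 days, where 35.2% of all genes fell. The 4 Leydig markers had already fallen by 16 days, with a list median of -2.02, where 14.3% of all genes fell. From 16 to 24 days their median change was 0.70, and 1 of them, Cyp11a1, was called higher. Of 6 measured epididymis markers, which could enter through attached tissue, 0 were called in any comparison by limma and 0 had an unadjusted p under 0.05.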

How the data were processed

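RNA prepared with QIAzol and miRNeasy columns was biotin-labelled for Affymetrix whole-transcript arrays, per the labels' protocols. The deposited table holds log2 values of 28815 rows in 9 arrays, centred on the row median, from -6.07 to 6.05; base 2 is inferred from this span of 12.12 and is not written in the table. Background correction, normalization and summarization are not given in the sources used here. The number of arrays limits the precision.

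Every row held blank cells (1 in 21932 rows, more in 6883), and with blanks as 0 each row's median was 0, so blanks were taken as 0. Of the rows, 21780 named 1 gene in the probe table; they were averaged to 19935 genes, and 21689 matched RefSeq gene IDs (GRCm38.p6), used for names and chromosomes. Tests were 2-sided limma fits (version 3.58.1, R 4.3.3) of 1 mean for each age over the 9 arrays, moderated by eBayes, with residual degrees of freedom of 6 and prior ones of 3.82. P-values were Benjamini-Hochberg adjusted over all genes, and 0.05 was the threshold. The fit and the permutation test were tested on simulated data. All 10 genes, the 3 largest called changes per list and direction at most, and the 3 nearest genes were eligible to be named. The genes and lists were chosen with earlier results of these data known. Figures were drawn with matplotlib 3.10.9 in Python 3.11.15. Alternatives are in the closing section.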

Additional observations from a re-analysis of the deposited data

How the results depend on the processing

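The alternatives tried were blanks left missing, arrays median-centred, only rows with 1 blank cell, every row tested alone, only the arrays of the ages compared, array weights, robust eBayes, a 2-fold minimum, a replicate block, leaving out the 2 arrays with high olfactory receptor genes, and leaving out each array in turn. Centring shifted all changes by 0.03, 0.09 and 0.12 (16 versus 8, 24 versus 16 and 24 versus 8 days). Of the changes of the 10 genes, 164 of 179 recomputed values for 16 versus 8 days, 175 of 179 for 24 versus 16 days and 179 of 179 for 24 versus 8 days kept their direction and their side of the threshold. Rows tested alone, rows with 1 blank cell, only the ages compared and robust eBayes could not alter the direction for these genes. They could alter the adjusted p only. The counts of called genes were 5 to 6, 9 to 10 and 9 to 10 over all alternatives.

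Reversals were of uncalled changes near 0. From 8 to 16 days Spaca7 changed by 0.0268 with centred arrays, 0.0132 with array weights and 0.026 with the replicate block, and Acrv1 and Spaca3 by -0.0704 and -0.0161 with blanks missing. With 1 array left out, the ranges were -0.0704 to 0.12 for Acrv1, -0.0462 to 0.22 for Spaca3, -0.0417 to 0.19 for Spaca4 and -0.11 to 0.093 for Spaca7. The difference between intervals was -0.40 for Acrbp with the block and -0.47 to 0.58 with 1 array left out, and 0.0274 for Zpbp without the 2 arrays. The log ratio of Spink2 to Acr changed from 16 to 24 days by -0.19 to 0.19 with 1 array left out, and that of Spaca7 to Spaca1 by 1.33 with blanks missing, against 1.02.

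A replicate block could be fitted on the 6 numbered arrays only. Deviations of same-numbered arrays correlated between -0.46 and 0.20, so the numbers were not taken as pairs. With the block, which uses fewer arrays, 1 gene instead of 2 had a larger first interval (1 to 3 with 1 array left out), and the adjusted p was 0.0763 for Spaca1 from 8 to 16 days, 0.125 for Spaca3 from 16 to 24 days, and 0.0888 for Acr and 0.0629 for Spaca4 between intervals. Of 570 recomputed counts of the other lists, 63 differed from the main count by over 1.5 times. Among them, with the block, rises by 16 days were 3 instead of 9 in acrosome formation and 2 instead of 5 in contents, and later rises 4 instead of 9 in acrosome formation and 3 instead of 8 among regulators. With blanks missing, rises were 3 instead of 5 in contents by 16 days and 5 instead of 9 later in acrosome formation. The cause of these differences was not tested.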
